A study of Homo sapiens with 16 samples.

Results

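The genes described here are 10 extracellular brakes on Wnt signalling and their partners: the Dickkopf genes DKK1, DKK2, DKK3 and DKK4, the Kremen receptor genes KREMEN1 and KREMEN2, the secreted Frizzled-related genes SFRP1, SFRP2 and FRZB, and the Wnt inhibitory factor gene WIF1. They were chosen by gene name from 35075 genes with transcripts in the files, with earlier results of these data known. RNA of HEK293, an established line from human embryonic kidney, was sequenced in 4 groups of 4 libraries. The control group (GFP) overexpressed green fluorescent protein, and the other 3 groups overexpressed wild-type RNF43 (WT), the frameshift mutant R117fs or the frameshift mutant G659fs. All groups shared the same line, and no other genotype or treatment is named in the labels. The labels do not say how the constructs were delivered, when cells were harvested or whether replicates came from separate cultures. The p-values below thus rest on the spread among replicate libraries alone, which can be technical.

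Wnt proteins signal by joining a Frizzled receptor to the co-receptor LRP5 or LRP6, which stabilises beta-catenin. The antagonists act outside the cell by different routes. SFRP proteins, FRZB and WIF1 bind Wnt ligands directly, whereas DKK1, DKK2 and DKK4 bind LRP5 and LRP6. Kremen proteins bind Dickkopf proteins together with LRP6 and help to remove that co-receptor from the cell surface. RNF43 is a ubiquitin ligase in the cell membrane that clears Frizzled from the surface. R117fs shifts the frame in its extracellular part, before the RING domain that carries the ligase activity, and G659fs shifts it in the cytoplasmic tail, after that domain. DKK1 is itself a known transcriptional target of beta-catenin, so its promoter is shown first.

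The RefSeq promoter table for build GRCh38.p14 held 4 of the 10 genes, DKK1, SFRP2, FRZB and WIF1. The 250 bases before the start of DKK1, chr10:52314031-52314280 on the plus strand, are printed 5′ to 3′ because DKK1 had the largest called fold change of the 8 genes tested. Capitals mark the core spellings searched for TCF/LEF, the DNA-binding partners of beta-catenin, which were CTTTGAT and its variant CTTTGAA, as well as the spelling CTTTGTT and its variant CTTTGTA, on either strand.
DKK1: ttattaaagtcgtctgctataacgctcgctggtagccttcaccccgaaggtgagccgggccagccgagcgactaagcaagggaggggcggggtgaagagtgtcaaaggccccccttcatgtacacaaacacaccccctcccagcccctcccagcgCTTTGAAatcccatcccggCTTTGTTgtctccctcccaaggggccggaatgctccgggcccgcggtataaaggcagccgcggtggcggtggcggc
CTTTGAA began 95 bases and CTTTGTT 76 bases before the RefSeq start, both on the gene's strand, and they do not overlap each other. Of 35116 upstream windows of the same length, 12.0% held at least 1 of the 4 spellings, and the windows of SFRP2, FRZB and WIF1 held none. A match of letters is a description of the sequence and was not tied to binding here.

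Library quality touches some of these results. Total estimated counts ran from 20364357 to 46779570 per library, and the shallowest were R117fs replicates 3 and 4. R117fs replicate 4 stood apart: the SD over genes of its log2 deviation from its group was 0.578, where no other library passed 0.409, and these deviations followed GC content (Spearman 0.790 across genes, which are not independent replicates). Calls that involve R117fs among the 10 genes are given also without that library. RNF43 itself was at 31.4 ± 15.4 CPM (counts scaled to each library's effective size; SD, n = 4) in GFP, 53346 ± 8058 in WT, 68441 ± 27519 in R117fs and 39391 ± 5415 in G659fs, so RNF43 was overexpressed in all 3 groups labelled for it, and these gene-level counts do not tell the 3 constructs apart. Of 10 genes listed for HEK293, 9 had a mean of at least 1 TPM, the level per transcript length, among them the intermediate filament gene VIM at 467 to 733 TPM. PTPRC and CD3E, which define blood cells, and KRT20, a gut marker, stayed at or under 0.224 TPM in every library. Of 5 genes listed for each of blood, fibroblasts and gut, a mean of at least 1 TPM was reached by 3, 2 and 2, with the gut gene CDX2 at 22.3 TPM, and their summed levels overlapped between groups except for fibroblasts in WT against GFP and G659fs, given beside KREMEN2. The summed HEK293 list likewise set WT apart from those groups, at 990.5 to 1017.6 TPM in WT, 815.7 to 937.5 in GFP, 893.8 to 985.5 in G659fs and 795.4 to 1018.0 in R117fs.

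Levels of the 10 genes are compared per length, as TPM summed over the transcripts of a gene. KREMEN1 stood highest at 17.4 ± 1.42 TPM over the 16 libraries (SD), with a range of 14.6 to 19.3, and made up 59.3% ± 3.85 of the summed TPM of the 10 genes. KREMEN2 came next at 4.79 ± 1.15 TPM (2.85 to 6.26), and its range did not meet that of KREMEN1. DKK3 followed at 2.93 ± 0.708 TPM, DKK1 at 2.20 ± 0.966, SFRP1 at 1.00 ± 0.206, WIF1 at 0.574 ± 0.161, DKK2 at 0.319 ± 0.0823 and FRZB at 0.120 ± 0.0471. From KREMEN2 downwards, each gene's range over the 16 libraries overlapped that of the next. Read within each library, DKK1 was above SFRP1, SFRP1 above WIF1 and DKK2 above FRZB in all 16, whereas KREMEN2 was above DKK3 in 15, DKK3 above DKK1 in 13, WIF1 above DKK2 in 15, FRZB above SFRP2 in 14 and SFRP2 above DKK4 in 8. SFRP2 at 0.0371 ± 0.0227 TPM and DKK4 at 0.0319 ± 0.0454 TPM closed the list. In the mean of each group, both Kremen genes had a higher TPM than each of the 8 genes for secreted antagonists.

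**Figure D1:**
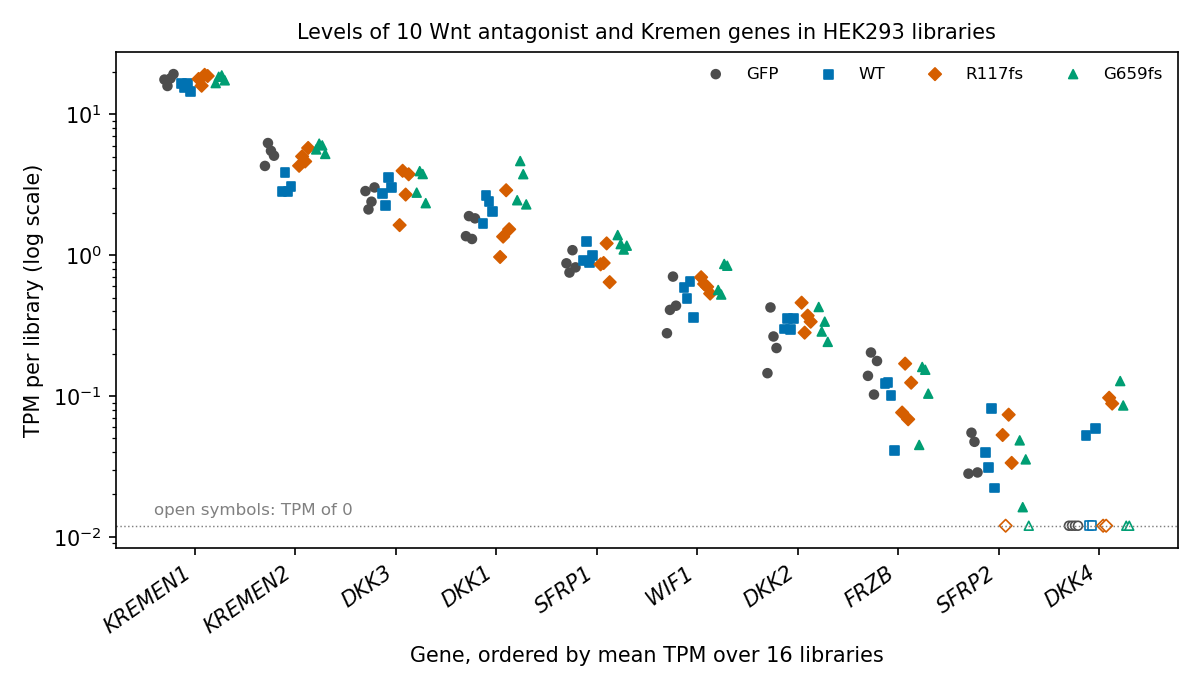
TPM of each gene (log axis) in each of the 16 libraries, coloured by group and ordered by the mean over all libraries; open symbols on the dotted line are libraries at 0. KREMEN1 lies apart at 14.6 to 19.3 TPM, and SFRP2 and DKK4 lie below 0.2 TPM in every library.

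Of the 10 genes, 8 passed the low-count filter and were tested, and DKK4 and SFRP2 did not. In 1 edgeR test of any difference among the 4 groups, 4 of the 8 passed at an adjusted p under 0.05, beside 37.1% of all 16787 genes tested. These were KREMEN2 (edgeR adjusted p = 0.000719), DKK1 (0.00127), SFRP1 (0.0197) and DKK3 (0.0458). KREMEN1 (0.487), WIF1 (0.202), DKK2 (0.296) and FRZB (0.726) did not pass. The DKK3 call was the weakest: over 22 alternatives its adjusted p ran from 0.0170 to 0.4516, and it ended in 16 of them, 12 of these by leaving out a single library. SFRP1 missed in 2 of 22 (up to 0.0543), and KREMEN2 and DKK1 passed in all 22. Outside these 22, the KREMEN2 call ended when its transcript KREMEN2-204, described below, was left out (edgeR adjusted p = 0.406). All 4 genes had their highest mean CPM in G659fs, and KREMEN2 alone of the 4 had its lowest in WT.

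By comparison, the counts of the 8 were as follows, with "called" standing for an edgeR adjusted p under 0.05. In WT against GFP 0 rose and 1 fell (KREMEN2), where 21.5% of all genes were called, 9.85% higher and 11.6% lower. In R117fs against GFP 0 were called and 0 had an unadjusted p under 0.05, where 15.6% of all genes were called, 7.04% higher and 8.57% lower. In G659fs against GFP 3 rose (DKK1, DKK3 and SFRP1) and 0 fell, where 25.4% were called, 11.6% higher and 13.8% lower. Of the 8, 1 was higher in R117fs than in WT (KREMEN2; 8.11% of all genes called, 4.5% higher and 3.62% lower), 1 in G659fs than in WT (KREMEN2; 5.68%, 2.32% and 3.35%) and 2 in G659fs than in R117fs (DKK1 and SFRP1; 14.4%, 6.35% and 8.02%). In these 3 comparisons between constructs 0 of the 8 were called lower.

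The count of genes whose 4 libraries all lay on 1 side of the other group's 4 needs no model. It was 1 of 10 below GFP in WT, where 16.7% of all genes tested lay below and 17.1% above. It was 0 in R117fs against GFP (7.29% above and 9.19% below) and 3 above in G659fs against GFP (19.1% above and 18.8% below). Between constructs it was 1 above in R117fs against WT (7.01% above and 8.32% below), 3 above in G659fs against WT (12.3% above and 14.5% below) and 1 above in G659fs against R117fs (9.28% above and 8.78% below). The median log2 fold change of the 8 tested genes against GFP was 0.18 with WT, 0.08 with R117fs and 0.43 with G659fs, where that of all genes was 0.00103, -0.00878 and 2.96e-05.

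KREMEN2 (ENSG00000131650; GRCh38 chromosome 16, 2963944 to 2968383, plus strand) encodes the second Kremen receptor for Dickkopf proteins. In GFP it was at 6.42, 8.72, 7.71 and 6.89 CPM in replicates 1 to 4, and in WT at 4.32, 5.90, 4.30 and 4.47 CPM. It was at 6.22, 7.28, 7.20 and 9.40 CPM in R117fs and at 8.40, 9.62, 8.47 and 8.20 CPM in G659fs. All 4 WT libraries lay below the other 12, while the R117fs libraries overlapped both GFP and G659fs. The counts behind these values were 138 to 419 per library.

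Against GFP, KREMEN2 fell in WT by 0.64 ± 0.14 on the log2 scale, to 0.643-fold (edgeR adjusted p = 0.00298). In bulk RNA, fewer cells with a transcript and less of it per cell cannot be told apart. R117fs did not differ from GFP in KREMEN2 past the threshold, at -0.01 ± 0.13 (95% interval -0.29 to 0.27; edgeR adjusted p = 0.979), and the sign of that value changed with the setting. G659fs was at 0.22 ± 0.13 against GFP (-0.05 to 0.49; 0.220). The 3 comparisons share the GFP libraries, so they are not independent of each other.

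Set directly against WT, both frameshift mutants had more KREMEN2. R117fs was higher by 0.63 ± 0.14, or 1.55-fold (edgeR adjusted p = 0.0106). R117fs replicate 4 was its highest library and the one that deviates with GC content (the mean GC of KREMEN2 transcripts is 68.8%). Without that library the difference was 0.51 (edgeR adjusted p = 0.0165). With each library's GC trend removed it was 0.45 (edgeR adjusted p = 0.0215). With only the 8 libraries compared it was 0.65 with an edgeR adjusted p of 0.0863, which ends the call. G659fs was higher than WT by 0.86 ± 0.13, or 1.82-fold (0.00321). G659fs against R117fs missed the threshold (0.23 ± 0.13, 95% interval -0.04 to 0.50; 0.248); without R117fs replicate 4 this was 0.35 with an adjusted p of 0.0422.

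The share of KREMEN2 within the reads of both Kremen genes separated the groups less than CPM did. KREMEN2 made up 6.40%, 9.02%, 6.39% and 6.49% of the reads of both Kremen genes in the WT replicates. In GFP its share was 9.01%, 12.7%, 11.0% and 10.1%. WT replicate 2 thus met the lowest GFP library on this measure, and the other 3 WT libraries lay below all of GFP. The share was 8.45%, 11.2%, 10.6% and 10.7% with R117fs, where replicate 1 lay below WT replicate 2, and 10.9% to 12.5% with G659fs, above all WT libraries.

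By estimated counts, the KREMEN2 difference lay mainly in 1 annotated transcript, which held 50.4% of KREMEN2 counts on average. KREMEN2-204 (ENST00000572045) has a last exon of 2967320 to 2968380 on chromosome 16 that runs through introns which KREMEN2-201 splices out, and its last exon is the longest among the 6 transcripts. It was estimated at 4.30, 4.28, 4.68 and 3.17 CPM in GFP and at 1.73, 2.23, 1.93 and 1.27 CPM in WT, so that all WT libraries were below all GFP libraries. In R117fs it was at 2.52 to 5.19 CPM and in G659fs at 3.30 to 6.53 CPM, again above every WT library. The other 5 transcripts together were at 3.33 ± 0.998 CPM in GFP, 2.96 ± 0.592 in WT, 3.37 ± 1.02 in R117fs and 3.99 ± 1.00 in G659fs (SD, n = 4), and these ranges overlapped. With KREMEN2-204 left out, an alternative chosen after seeing the data, WT against GFP was -0.16 ± 0.24 (edgeR adjusted p = 0.664), R117fs against WT 0.20 ± 0.24 (0.619) and G659fs against WT 0.43 ± 0.22 (0.270), so all 3 calls ended. Reads in shared exons are divided between transcripts by estimation, and the standard errors of these 3 values without KREMEN2-204, at 0.22 to 0.24, were larger than those with it, at 0.13 to 0.14.

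**Figure D2:**
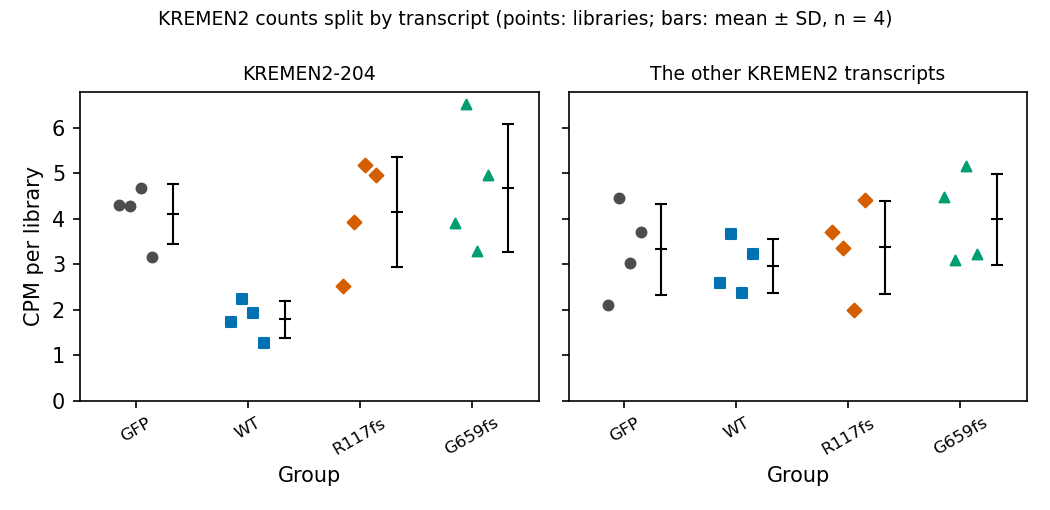
CPM of KREMEN2-204 (left) and of the other 5 KREMEN2 transcripts together (right) in each library; bars are mean ± SD of 4 libraries. On the left all WT libraries are at or below 2.23 CPM, under every library of the other groups, whereas on the right the groups overlap.

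KREMEN2 overlaps PKMYT1, a kinase gene of the cell cycle, on the opposite strand. The sources used here give no strand setting, so reads in the 360 shared exon bases (of 2614 in KREMEN2) cannot be told apart by strand. The 3 PKMYT1 transcripts that overlap held 18.4 to 55.4 estimated counts per library. PKMYT1 as a whole did not pass in any of the 6 comparisons (edgeR adjusted p from 0.513 to 0.960). With the counts of those 3 transcripts added to KREMEN2, WT against GFP was -0.61 ± 0.11 (edgeR adjusted p = 0.00113), and the call held. That addition covers only KREMEN2 reads assigned to PKMYT1. It takes no reads out of KREMEN2, so PKMYT1 reads counted as KREMEN2 were not tested. Fibroblast markers moved in the same direction between groups: the summed TPM of 5 markers, of which COL1A1 gave most, ran from 21.4 to 24.2 among GFP libraries, 14.6 to 19.9 among WT, 16.8 to 28.2 among R117fs and 23.2 to 32.1 among G659fs, with COL1A2 at 0.145 TPM or less. The summed HEK293 list moved the other way, being higher in WT. The part of either list in the result was not tested.

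KREMEN1 (ENSG00000183762; chromosome 22, 29073078 to 29168333, plus strand), the first Kremen receptor, was at 62.2 ± 2.15 CPM in GFP, 62.5 ± 2.11 in WT, 66.1 ± 9.27 in R117fs and 67.1 ± 2.00 in G659fs (SD, n = 4). It rested on 1175 to 2927 counts per library, so counting error was small. The wide R117fs group came from replicate 4, at 78.5 CPM, next to 57.5 to 67.4 in the other 3. The log2 difference from GFP was 0.01 (95% interval -0.16 to 0.17) for WT, 0.08 (-0.08 to 0.25) for R117fs and 0.11 (-0.05 to 0.27) for G659fs, and none passed (edgeR adjusted p = 0.969, 0.503 and 0.328). All 4 G659fs libraries were above all 4 WT libraries, although the difference of 0.10 ± 0.08 did not pass (edgeR adjusted p = 0.4645). The transcript KREMEN1-202 held 96.3% of KREMEN1 counts, between 95.5% and 97.8% in every library.

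DKK1 (ENSG00000107984; chromosome 10, 52314296 to 52318042, plus strand), the best known Dickkopf antagonist of LRP6, was at 1.03, 1.47, 1.44 and 1.75 CPM in GFP. It was at 1.19, 2.69, 1.82 and 2.27 CPM in WT and at 1.13, 1.60, 1.87 and 1.08 CPM in R117fs. In G659fs it was at 2.61, 3.51, 3.48 and 2.79 CPM. Every G659fs library was above every GFP and every R117fs library, while WT replicate 2 reached into the G659fs range. The counts were low, at 21 to 153 reads per library and under 50 in 8 of the 16, the 4 GFP libraries among them.

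DKK1 rose 2.20-fold in G659fs against GFP (log2 1.14 ± 0.22; edgeR adjusted p = 0.00122). It was 2.24-fold higher in G659fs than in R117fs (1.16 ± 0.22; 0.00217), and 1.10 on the log2 scale (0.00220) without R117fs replicate 4. WT lay between the other groups. Against GFP it was at 0.50 ± 0.24 (95% interval 0.00 to 1.00; 0.143), which became 0.68 with an adjusted p of 0.0349 without WT replicate 1, its lowest library. Against WT, G659fs was at 0.64 ± 0.20 (0.22 to 1.05; 0.0633) and R117fs at -0.53 ± 0.24 (-1.02 to -0.03; 0.169). The G659fs value passed in 5 of 23 alternatives. Among them were the fits without WT replicate 2 (0.85, edgeR adjusted p = 0.0264) and without R117fs replicate 4 (0.64, edgeR adjusted p = 0.0235). R117fs against GFP was -0.03 ± 0.26 (-0.58 to 0.53; 0.961), and its sign changed with the setting.

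**Figure D3:**
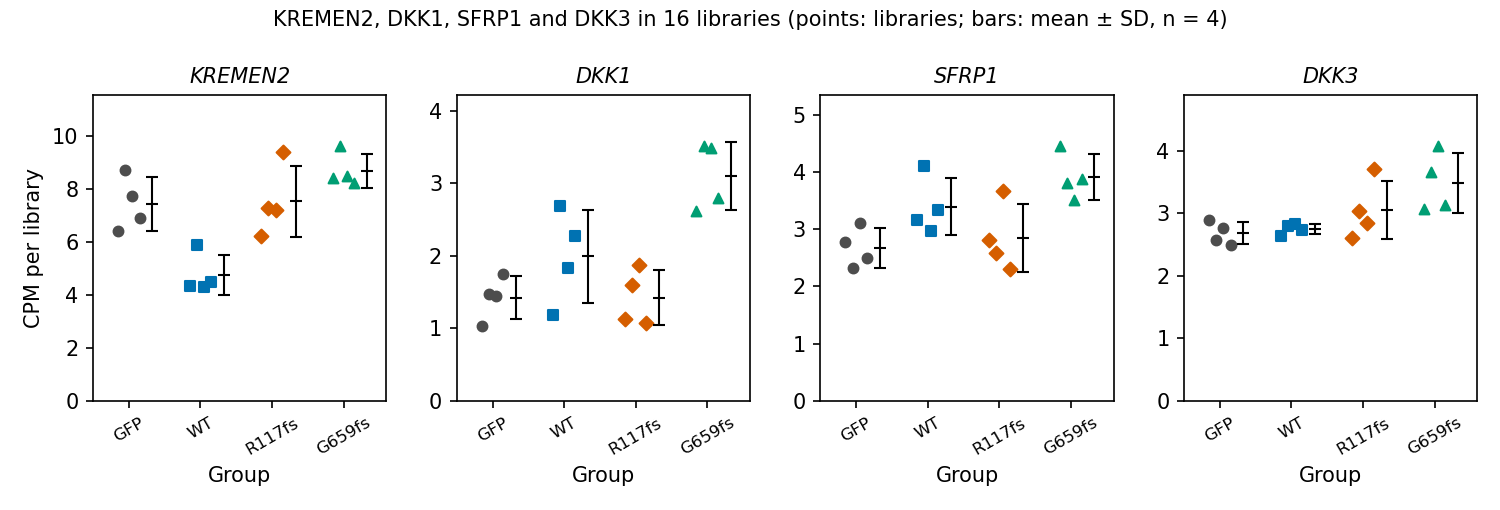
CPM of KREMEN2, DKK1, SFRP1 and DKK3 in each of the 16 libraries (axes start at 0 and differ between genes); bars are mean ± SD of 4 libraries. KREMEN2 is low in WT at 4.30 to 5.90 CPM, and DKK1 is high in G659fs at 2.61 to 3.51 CPM.

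DKK3 (ENSG00000050165; chromosome 11, 11963106 to 12009769, minus strand) is a divergent Dickkopf that does not bind LRP6 as DKK1 does. It was at 2.89, 2.58, 2.77 and 2.50 CPM in GFP, at 2.64, 2.80, 2.83 and 2.72 in WT, at 2.61, 3.04, 2.85 and 3.70 in R117fs and at 3.07, 3.65, 4.07 and 3.13 in G659fs. The G659fs libraries lay above all GFP and WT libraries and overlapped R117fs. Against GFP it rose 1.31-fold in G659fs (0.39 ± 0.12; edgeR adjusted p = 0.0255). That call was the least stable of those against GFP: it ended without GFP replicate 2 (0.0638), GFP replicate 4 (0.0745), G659fs replicate 2 (0.0713) or G659fs replicate 3 (0.104), and with an offset for effective length (0.45; 0.208). G659fs against WT was 0.36 ± 0.12 (edgeR adjusted p = 0.0778). It passed in 3 of 23 alternatives, among them without R117fs replicate 4 (edgeR adjusted p = 0.0253). Neither WT (0.03 ± 0.13, edgeR adjusted p = 0.871) nor R117fs (0.16 ± 0.13, edgeR adjusted p = 0.439) differed from GFP past the threshold. Of its 16 annotated transcripts, DKK3-201 held between 0% and 90.0% of the estimated counts by library, so its transcripts could not be followed at 55 to 165 reads.

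DKK2 (ENSG00000155011; chromosome 4, 106921802 to 107283806, minus strand), which like DKK1 binds LRP6, rested on 8 to 32 reads per library. It was at 0.487 ± 0.141 CPM in GFP, 0.723 ± 0.179 in WT, 0.658 ± 0.178 in R117fs and 0.696 ± 0.151 in G659fs (SD, n = 4). The mean of each construct was above GFP, by 0.53 (95% interval -0.01 to 1.07), 0.40 (-0.17 to 0.97) and 0.48 (-0.07 to 1.02) on the log2 scale. None passed (edgeR adjusted p = 0.151, 0.346 and 0.192), and the libraries overlapped in every comparison. DKK4 (ENSG00000104371), a Dickkopf induced by beta-catenin in some tissues, had 8 reads in all 16 libraries. It had 0 reads in the 4 GFP libraries, which allows up to 0.0266 CPM (3 counts over the group), and 2, 2 and 4 reads in WT, R117fs and G659fs. A change of DKK4 was not detectable at this depth (edgeR without a filter, adjusted p from 0.268 to 0.994 over the 6 comparisons).

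SFRP1 (ENSG00000104332; chromosome 8, 41261958 to 41309497, minus strand) encodes a secreted protein with a Frizzled-like domain that binds Wnt ligands. It was at 2.77, 2.32, 3.10 and 2.50 CPM in GFP, at 3.16, 4.11, 2.97 and 3.34 in WT, at 2.81, 2.59, 3.68 and 2.31 in R117fs and at 4.46, 3.81, 3.51 and 3.88 in G659fs. All G659fs libraries were above all GFP libraries, and R117fs replicate 3 reached into the G659fs range. SFRP1 rose 1.45-fold in G659fs against GFP (0.53 ± 0.14; edgeR adjusted p = 0.0114) and was 1.38-fold higher in G659fs than in R117fs (0.47 ± 0.14; 0.0361). The second call ended in 9 of 23 alternatives, among them without R117fs replicate 1 (0.0637), R117fs replicate 2 (0.106), G659fs replicate 1 (0.0988), G659fs replicate 2 (0.0794), G659fs replicate 4 (0.0666) or WT replicate 4 (0.0511); without R117fs replicate 4 it was 0.41 (0.0486). WT was at 0.35 ± 0.15 against GFP (95% interval 0.04 to 0.66; 0.0973), G659fs at 0.18 ± 0.13 against WT (-0.10 to 0.46; 0.4497) and R117fs at 0.07 ± 0.16 against GFP (-0.26 to 0.39; 0.818).

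The other Wnt-binding antagonists rested on few reads. WIF1 (ENSG00000156076; chromosome 12, 65050626 to 65121566, minus strand) had 0.534 ± 0.141 CPM in GFP, 0.675 ± 0.0728 in WT, 0.685 ± 0.177 in R117fs and 0.809 ± 0.132 in G659fs, from 9 to 36 reads per library. G659fs against GFP was 0.56 ± 0.22 (95% interval 0.10 to 1.02; edgeR adjusted p = 0.0710), which passed without G659fs replicate 3 (0.68; 0.0434) and with the GC trend removed (0.56; 0.0475). FRZB (ENSG00000162998; chromosome 2, 182833275 to 182867162, minus strand), also called SFRP3, was the one tested gene whose mean was below GFP in all 3 construct groups, at 0.333 ± 0.0968 CPM in GFP against 0.229 ± 0.0918, 0.253 ± 0.105 and 0.264 ± 0.120. With 3 to 16 reads per library its intervals were wide (-1.28 to 0.35 for WT against GFP), and none of its comparisons passed. SFRP2 (ENSG00000145423), a close relative of SFRP1, had 26 reads in all, from 0 to 4 per library, and did not pass without a filter (adjusted p from 0.668 to 1.00).

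**Figure D4:**
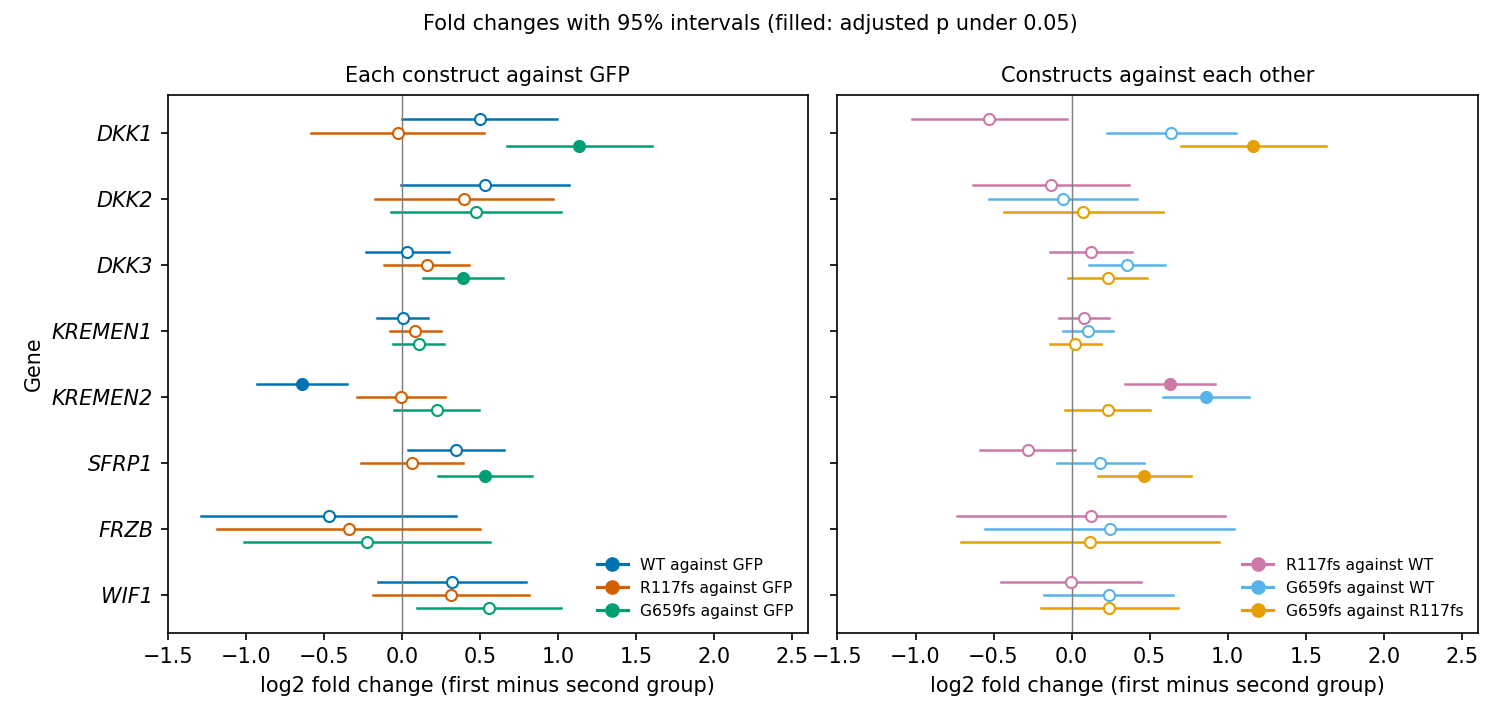
Log2 fold changes (first group minus second) with 95% intervals for the 8 tested genes, for each construct against GFP (left) and for the constructs against each other (right); filled symbols have an edgeR adjusted p under 0.05. The filled symbols are KREMEN2 in WT and in both mutants against WT, DKK1 and SFRP1 in G659fs against GFP and R117fs, and DKK3 in G659fs against GFP.

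Receptors and binding partners of these antagonists were read from the same fit, as a list of 21 genes that all passed the filter. In G659fs against GFP, 7 rose and 0 fell, where 11.6% of all genes were called higher and 13.8% lower, and the median log2 fold change of the list was 0.19. FZD9, a Frizzled receptor, rose from 6.65 ± 0.261 to 10.8 ± 0.473 CPM (0.70; edgeR adjusted p = 7.3e-05), and FZD1 and FZD8 rose by 0.38 (0.00294) and 0.55 (0.000889). CKAP4, a surface receptor for DKK1, was higher than GFP with every construct, by 0.39 in WT (0.000144), 0.21 in R117fs (0.0185) and 0.32 in G659fs (0.000654). In WT against GFP, where 9.85% of all genes were called higher and 11.6% lower, 2 of the 21 rose and 1 fell, the last being LRP6, the co-receptor that Dickkopf and Kremen proteins act on, by 0.32 (0.0171); it was named after its value was seen. In R117fs against GFP 2 rose and 0 fell (7.04% and 8.57% of all genes). In G659fs against R117fs 7 were higher and 1 lower (6.35% and 8.02%).

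Other secreted or membrane-bound Wnt modulators formed a list of 17, of which 12 were tested, and the counts of this list and the next stand beside the same shares of all genes. In G659fs against GFP 4 rose and 0 fell: SHISA2 (0.89; edgeR adjusted p = 0.00144) and SHISA3 (0.51; 0.00168), which hold Frizzled receptors inside the cell, TPBG (0.30; 0.00713), a membrane inhibitor of Wnt signalling also known as 5T4, and SOSTDC1 (0.45; 0.0234), a secreted inhibitor that binds LRP6. In WT 1 rose, SHISA3 (0.52; 0.00171), and 1 fell, NOTUM (-0.44; 0.0459), the enzyme that removes the lipid from Wnt proteins, which was named after its value was seen. In R117fs 1 rose, SOSTDC1 (0.51; 0.0215). Of 15 tested targets of beta-catenin, a list that includes DKK1, 5 rose and 0 fell in G659fs, 2 rose and 1 fell in WT and 1 rose and 0 fell in R117fs against GFP. MYC rose in all 3, by 0.49 (0.00137), 0.34 (0.0219) and 0.56 (0.000399), and CCND1, a cyclin gene, in WT by 0.43 (0.0430) and in G659fs by 0.74 (0.00142). NKD1, a feedback inhibitor inside the cell, rose in G659fs by 0.33 (0.00551). Another listed target, AXIN2, did not pass for any construct set against GFP. Its log2 differences were -0.23 with WT (edgeR adjusted p = 0.141), -0.20 with R117fs (0.252) and -0.16 with G659fs (0.309). AXIN2 was named after its values were seen.

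Among 14140 other genes with a mean of at least 1 CPM, those whose log2 CPM followed a member most closely over the 16 libraries were picked by Pearson correlation. The libraries share their groups and depth, so these values describe likeness of pattern alone. For KREMEN2 they were L1CAM (r = 0.925), LRP2 (0.909) and VWA5B2 (0.897). For DKK1 they were EMILIN2 (0.958), UBASH3B (0.954) and ZCCHC12 (0.951), and for SFRP1 they were ATP5MF (0.926), HOMER2 (0.908) and SPIN2B (0.905).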

How the data were processed

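The 16 libraries were sequenced from column-purified, DNase-treated RNA, per the labels' protocols. The submitters' processing notes name kallisto 0.45.1 and GRCh38, and the authors deposited, per transcript, an estimated count, a TPM value scaled by effective length, and the length. The sources used here give no annotation release, run option or strand setting.

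Of 178136 transcripts, 162453 (91.20%) matched GENCODE 29 by identifier without version; the rest held 1.90% to 2.22% of a library's counts and were left out. Estimated counts were summed per gene, rounded, filtered (filterByExpr, 16787 genes kept of 28028 with counts) and tested by edgeR 4.0.16 (R 4.3.3; TMM scaling, robust quasi-likelihood fit of all 16 libraries, 1 coefficient per group), with Benjamini-Hochberg adjustment over all genes tested and a threshold of 0.05. The fit was tested on simulated data, in which only well-counted genes changed and no library deviated with GC content. Values after ± beside a log2 fold change are standard errors. Intervals are 95%. Deposited TPM values were summed per gene for levels alone. All 10 members were named by rule. The most alike genes were the 3 with the highest Pearson correlation for each of the 3 members with smallest p among the 4 groups. Per context list at most 4 genes were named by smallest p. LRP6, NOTUM and AXIN2 were named beyond that rule, after their values were seen. The members, lists and tests were chosen with earlier results of these data known. No library was taken for a duplicate, since the closest 2 replicates gave 3.11 as their chi-square divided by its degrees of freedom with RNF43 left out. The floor for a count of 0 covers counting error only. Alternatives were RLE scaling, DESeq2 1.42.0, no filter, the 8 libraries compared alone, a replicate block, an effective length offset, removal of each library's GC trend, and leaving out each of the 16 libraries; 2 on KREMEN2 reads were added after seeing the data.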

Additional observations from a re-analysis of the deposited data

Results flagged for a closer look

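KREMEN2 in WT replicate 2 was at 5.90 CPM, far from the other 3 WT libraries at 4.30 to 4.47 CPM: its gap to the nearest of them was 0.891 of the group's range. Of 39 sets of 4 libraries checked over the 10 genes it was the only one so marked, and chance marks about 1 in 20. The fall against GFP was 0.77 on the log2 scale without that library.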

How the results depend on the processing

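Among the 10 genes, the rise of DKK1 in G659fs against GFP and R117fs, the rise of SFRP1 in G659fs against GFP and the differences of KREMEN2 in WT against GFP and in G659fs against WT kept direction and call in all 23 alternatives that leave KREMEN2 reads as they are. Without KREMEN2-204, 0 members were called in WT against GFP, R117fs against WT and G659fs against WT. With only the 8 libraries compared, members called were 0 in R117fs against WT, 3 in G659fs against WT and 1 in G659fs against R117fs; no filter gave 1 in the last. The length offset gave 1 there. In the test of any difference it gave 2, not 4, and DESeq2, no filter, the replicate block and most fits without a single library gave 3, with DKK3 lost in 16 of 22 alternatives. Removing the GC trend gave 3 in G659fs against WT. Among 24 same-numbered pairs of libraries 5 correlated over 0.1, with a range from -0.0619 to 0.160. Pairs with different numbers were not compared, so whether replicate numbers pair the samples was not settled. The replicate block gave 2 members in G659fs against WT (DKK1, 0.64, edgeR adjusted p = 0.0198). It gave 1841 genes called in R117fs against WT, where the main fit gave 1362. Leaving out each library gave 1 to 2 members in WT against GFP, 1 to 3 in G659fs against WT and 1 to 3 in G659fs against R117fs.

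Genes called moved more. With 8 libraries they were, against GFP, 5919 for WT, 588 for R117fs and 6993 for G659fs, 154 in R117fs and 4660 in G659fs against WT, and 796 in G659fs against R117fs. With the GC trend removed they were 6251, 4599, 6698, 2922, 3285 and 4902 in that order, and 9775 for any difference. The length offset gave 1738 in R117fs against GFP, 853 in R117fs against WT and 439 in G659fs against WT, where DESeq2 gave 1663 and no filter 601. Leaving out each library gave 2222 (without GFP replicate 4) to 6133 (R117fs replicate 4) for WT, 1455 (GFP replicate 4) to 3701 (R117fs replicate 4) for R117fs and 3067 (GFP replicate 4) to 6723 (R117fs replicate 4) for G659fs, all against GFP. It gave 626 (WT replicate 2) to 2607 (R117fs replicate 1) in R117fs against WT, 100 (G659fs replicate 2) to 3530 (R117fs replicate 4) in G659fs against WT and 1320 (G659fs replicate 3) to 4012 (R117fs replicate 4) in G659fs against R117fs. The cause was not tested.

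Signs changed only for differences that were not called. KREMEN1 in WT against GFP became -0.0165 with the length offset and -0.00793 with the GC trend removed, and ran from -0.0193 to 0.0276 without single libraries. DKK1 in R117fs against GFP became 0.000442 with the replicate block and 0.0212 with GC removed (-0.147 to 0.109 without single libraries). KREMEN2 in R117fs against GFP became 0.00694 with DESeq2, 0.00597 without a filter, 0.0322 with PKMYT1 reads and 0.0386 without KREMEN2-204 (-0.12 to 0.0909 without single libraries). DKK3 in R117fs against WT became -0.0949 with the length offset. Without single libraries DKK3 in WT ran from -0.00456 to 0.0622, and in R117fs KREMEN1 ran from -0.00523 to 0.153 and SFRP1 from -0.0419 to 0.157, all against GFP. By CPM in place of TPM, KREMEN1 held 79.3% of the summed level. Under 50 reads in every library limit DKK2, WIF1, FRZB, SFRP2 and DKK4, and DKK1 had under 50 in 8 libraries.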
